A study of Rattus norvegicus with 4 samples.

Results

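The enzymes that oxidise, hydrolyse and conjugate foreign compounds were examined on kidney arrays of 2 inbred rat strains exposed to nicotine or saline before birth. Probe sets were taken by their platform gene symbol: cytochromes P450 of the Cyp1, Cyp2 and Cyp3 families, the Ugt, Sult, Fmo, Ces and numbered Nat families, and Aox1, Ephx1 and Por. Cyp2c11, Cyp2c23 and Cyp2j4 were left out. This gave 66 probe sets of 60 genes among the 15866 probe sets, and 10411 named genes, of the array without its controls. A probe set was called measured if its mean log2 signal over the 4 arrays was at least that of 89.0, which is 2 times a floor of 44.5, the 40th percentile of all values. By that limit 17 of the 66 probe sets, for 16 genes, were measured, as were 6678 probe sets overall.

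The 4 groups were spontaneously hypertensive rats (SHR) given nicotine prenatally, SHR given saline, Brown Norway rats (BN) given nicotine and BN given saline. All were males aged 9 weeks, and total RNA came from kidney. The RNA of 13 SHR nicotine animals, and of 12 animals in each other group, was pooled in equal amounts and each pool went to 1 Affymetrix RAE-230A array. A pool gives no spread between animals, and in whole kidney fewer cells of a type cannot be told apart from less RNA per cell.

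Xenobiotic metabolism runs in steps. Cytochromes P450 and flavin monooxygenases add oxygen to a lipophilic compound, epoxide hydrolase and carboxylesterases open epoxides and esters, and transferases then attach glucuronic acid, sulfate or acetyl groups so that the product can be excreted. The liver is the main site, and in the kidney these enzymes lie mostly in the proximal tubule. Nicotine itself is a substrate of such enzymes: in humans it is oxidised mainly by a CYP2A enzyme together with aldehyde oxidase, and also N-oxidised by flavin monooxygenase and glucuronidated.

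Promoter sequences are shown for the members with the largest strain differences in each direction, and for Por because it held the most matches to a motif searched. Each is the 250 bases before the annotated start in the RefSeq table of build GRCr8, which was assembled from a BN rat. The lines give Cyp2d2 (chr7:115819282-115819531, minus strand) and Ces1e (chr19:30005923-30006172, plus strand), both with lower signals in SHR, then Ugt2b35 (chr14:21208191-21208440, plus strand) and Sult1b1 (chr14:20771667-20771916, plus strand), both with higher signals in SHR, and last Por (chr12:26635810-26636059, minus strand). Capitals mark a match on either strand to GCGTG, the core bound by the aryl hydrocarbon receptor, or to GTTAAT, part of the site bound by HNF1.
Cyp2d2: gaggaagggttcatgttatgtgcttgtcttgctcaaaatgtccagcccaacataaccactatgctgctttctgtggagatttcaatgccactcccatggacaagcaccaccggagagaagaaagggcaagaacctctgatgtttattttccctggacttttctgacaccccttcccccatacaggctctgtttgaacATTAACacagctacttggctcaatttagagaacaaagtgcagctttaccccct
Ces1e: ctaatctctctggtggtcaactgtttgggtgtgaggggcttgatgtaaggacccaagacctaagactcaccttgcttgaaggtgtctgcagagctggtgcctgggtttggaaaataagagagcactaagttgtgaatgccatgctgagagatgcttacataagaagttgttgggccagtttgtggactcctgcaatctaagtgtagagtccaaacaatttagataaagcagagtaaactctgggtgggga
Ugt2b35: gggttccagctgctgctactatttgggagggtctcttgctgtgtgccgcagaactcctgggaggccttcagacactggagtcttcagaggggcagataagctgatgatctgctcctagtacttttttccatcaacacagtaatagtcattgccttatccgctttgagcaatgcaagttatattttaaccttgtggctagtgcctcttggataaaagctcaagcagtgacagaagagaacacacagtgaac
Sult1b1: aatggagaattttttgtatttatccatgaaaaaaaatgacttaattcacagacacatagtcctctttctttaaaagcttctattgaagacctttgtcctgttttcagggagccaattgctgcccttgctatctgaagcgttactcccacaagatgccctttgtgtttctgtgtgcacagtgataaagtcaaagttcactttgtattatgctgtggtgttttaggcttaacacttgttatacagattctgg
Por: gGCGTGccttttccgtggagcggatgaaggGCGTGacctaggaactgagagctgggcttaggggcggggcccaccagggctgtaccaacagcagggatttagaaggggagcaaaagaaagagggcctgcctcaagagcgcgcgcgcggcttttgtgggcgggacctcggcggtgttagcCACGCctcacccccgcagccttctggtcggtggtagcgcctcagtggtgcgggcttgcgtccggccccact

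Of the 60 member genes, 52 had a promoter in that table. GCGTG or its reverse complement CACGC was present in 8 of the 52, or 15.4%, against 27.2% of 27457 promoters of the same length. GTTAAT or ATTAAC was present in 5, or 9.62%, against 6.46% of all. Among the 16 measured genes, Por held 3 GCGTG matches, Ces1d and Sult2b1 held 1 each, and Cyp2d2 held 1 GTTAAT match. The motifs do not overlap each other, and a match is a description of letters, not of binding.

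Before any comparison, the arrays show which enzymes the kidney signal covers. Of the 49 probe sets that were not measured, 40 lay below the floor on all 4 arrays. All 4 Cyp3 probe sets were among these (Cyp3a2, Cyp3a9, Cyp3a18 and Cyp3a23-3a1, the last read by a probe set of that joint name), as was that of the aldehyde oxidase Aox1, which stood between 6.07 and 20.6. The Cyp1 enzymes, which the aryl hydrocarbon receptor induces, were not measured: Cyp1a1 and Cyp1a2 lay below the floor throughout, and Cyp1b1 read 45.2 and 57.0 in the nicotine and saline pools of SHR, against 41.6 and 32.9 in those of BN. The Cyp2a and Cyp2b probe sets (Cyp2a1, Cyp2a2, Cyp2a3, Cyp2b3, Cyp2b12 and Cyp2b21) were below the floor on all arrays, so differences in them were not detectable here. The same held for Cyp2c6v1, Cyp2c7, Cyp2c12, Cyp2c13, Cyp2c22, Cyp2d3, Cyp2f4, Cyp2g1 and Cyp2j3.

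Among conjugating enzymes, the sulfotransferase probe sets of Sult1c3, Sult1d1, Sult1e1, Sult2a1, Sult2a2, Sult2a6 and Sult6b2, 1 of 2 for Sult2b1, and the glucuronosyltransferase probe sets of Ugt2a1, Ugt2b, Ugt2b1 and Ugt2b15 were below the floor on all arrays. So were Nat2, an arylamine acetyltransferase, Nat9, the carboxylesterase Ces1c and 1 of 2 probe sets each for Nat1 and Ugt8. Above the floor on at least 1 array, but below the limit on average, were 9 further probe sets, of Cyp1b1, Cyp2d4, Cyp2s1, Cyp2t1, Sult4a1, Ugt2b7, Ugt8, Nat1 and Nat10. By their known roles, Nat10 acetylates RNA and Ugt8 makes galactosylceramide.

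The strains differed in many of the enzymes that were measured. Averaged over treatments, 7 of the 17 measured probe sets were lower in SHR and 3 were higher, each with an adjusted p under 0.05. Over all 6678 measured probe sets 9.13% were called lower and 8.13% higher in SHR by the same test. The test was limma with strain and treatment as factors over the 4 arrays and Benjamini-Hochberg adjustment over all measured probe sets. No group had a second pool. The spread is thus how far the strain ratio differed between the treatments, moderated over probe sets. Among the 7, Ces1e was measured only through its BN signals, since its SHR mean lay under the limit, so its values are given without a test. Without probe sets of that kind, 6 of 16 members were lower and 3 higher, against 8.62% and 7.73% of 6326 probe sets. Of the 17 members 6 were called and also at least 1.5-fold apart, against 5.05% of all probe sets past both limits. They were Cyp2d2, Sult1a1, Cyp2e1, Sult1b1, Ugt2b35 and Ces1e, or 5 without Ces1e, against 3.83%. Between the nicotine pools alone 6 of the 17, Ces1e included, were at least 1.5-fold apart, against 6.72% of all probe sets, and between the saline pools 7 were, against 6.53%. The median log2 ratio of the 17, SHR over BN, was -0.21, beside -0.0010 over all measured probe sets, and it was -0.15 over the 16.

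**Figure D1:**
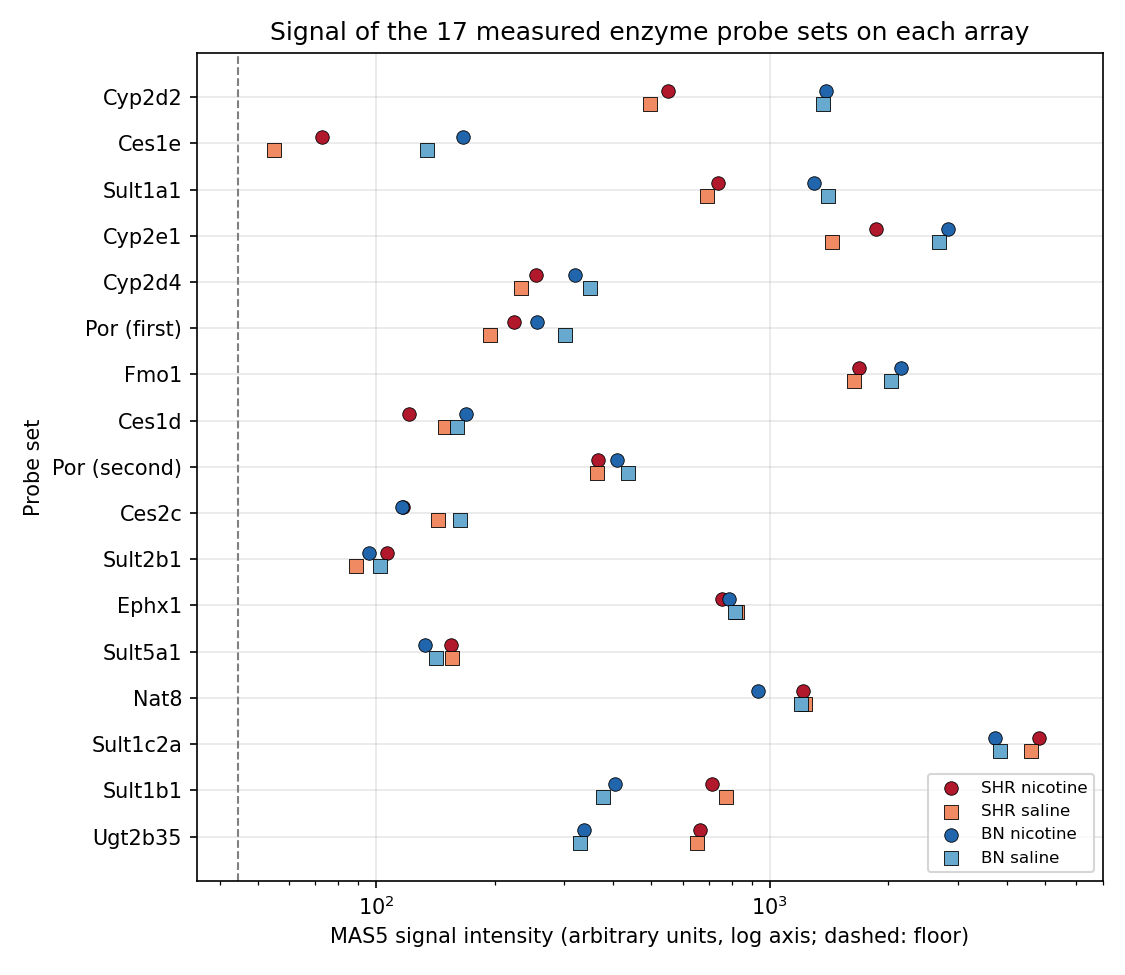
MAS5 signal intensity in arbitrary units on a log axis for the 17 measured enzyme probe sets, with 1 point for each of the 4 pooled arrays and a dashed line at the floor of 44.5. Rows run from the lowest SHR over BN ratio at the top (Cyp2d2) to the highest at the bottom (Ugt2b35), and levels of different rows cannot be compared.

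The 4 measured genes for oxidising enzymes, Cyp2d2, Cyp2d4, Cyp2e1 and Fmo1, were all called lower in SHR. Cyp2d2, a rat enzyme of the subfamily that hydroxylates debrisoquine, read 552 and 495 in the nicotine and saline pools of SHR, against 1388 and 1363 in those of BN. Both SHR pools lay far below both BN pools. The SHR level was 2.63-fold lower (log2 ratio -1.40, SE 0.07, limma adjusted p = 4.3e-10). Its paralog Cyp2d4, known in rats for expression in the brain, read 255 and 234 in SHR, against 320 and 349 in BN, a smaller difference with no overlap of the groups (log2 ratio -0.45, SE 0.10, limma adjusted p = 0.00447). The second Cyp2d4 probe set, below the limit, read 79.6 and 71.1 in SHR, against 104.3 and 100.2 in BN. The Cyp2d genes, like the Ces1, Sult1 and Ugt2b genes below, have close paralogs, so a probe set may also read another member of its family. Called probe sets here and below were picked on these same signals, so a lack of overlap between the strains adds no support. How many of all probe sets lack overlap was not counted.

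Cyp2e1, which oxidises ethanol and other small molecules, read 1859.5 and 1434 in the nicotine and saline pools of SHR, against 2833 and 2691 in those of BN. It was 1.69-fold lower in SHR (log2 ratio -0.76, SE 0.07, limma adjusted p = 1.04e-06), with ratios of -0.61 between the nicotine pools and -0.91 between the saline pools. Fmo1, the flavin monooxygenase that oxidises nitrogen and sulfur atoms, read 1681 and 1636 in SHR, against 2149 and 2027 in BN, so the groups did not overlap and the SHR level was 1.26-fold lower (limma adjusted p = 0.00139).

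Por encodes the reductase that passes electrons from NADPH to the microsomal P450 enzymes. On both of its 2 probe sets each SHR pool read below each BN pool, but only the first passed the test. The first read 224 and 195 in SHR, against 256 and 303 in BN (log2 ratio -0.41, SE 0.12, limma adjusted p = 0.0213). The second read 367 and 363 in SHR, against 408 and 436 in BN, and its ratio of -0.21 (SE 0.09) did not pass the test (limma adjusted p = 0.117).

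The hydrolases were uneven. Ces1e, a carboxylesterase, read 72.9 and 55.1 in the nicotine and saline pools of SHR, against 166 and 135 in those of BN, a log2 ratio of -1.24 (2.36-fold). Both of its SHR signals lay above the floor but under the limit of 89.0, and both BN signals lay above that limit. Ces1d, adjacent to it in the RefSeq gene order, read 121 and 150 in SHR, against 170 and 160 in BN, and did not pass (log2 ratio -0.29, SE 0.14, limma adjusted p = 0.169). Ces2c read 117 and 144 in SHR, against 116 and 163 in BN, with overlapping groups. Ephx1, the microsomal epoxide hydrolase, read 754 and 824 in SHR, against 786 and 816 in BN, a log2 ratio of -0.02 with an SE of 0.07.

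Conjugating enzymes moved in both directions. Sult1a1, the phenol sulfotransferase, read 739 and 693 in the nicotine and saline pools of SHR, against 1296 and 1404 in those of BN, 1.88-fold lower in SHR (log2 ratio -0.91, SE 0.07, limma adjusted p = 1.23e-07). Sult1b1, which sulfates thyroid hormones and phenols, went the other way at 713 and 775 in SHR, against 404 and 377 in BN, 1.90-fold higher (log2 ratio 0.93, SE 0.08, limma adjusted p = 4.29e-07). In neither gene did the pools of the strains overlap. Sult1c2a, a further sulfotransferase, read 4823 and 4601 in SHR, against 3724 and 3837 in BN, a rise of 1.25-fold (limma adjusted p = 0.00165). Sult2b1, which sulfates cholesterol, and Sult5a1 did not pass, with log2 ratios of -0.03 (SE 0.17) and 0.18 (SE 0.13).

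Ugt2b35, a glucuronosyltransferase, read 665 and 653 in SHR, against 337 and 330.2 in BN, and was 1.97-fold higher in SHR (log2 ratio 0.98, SE 0.08, limma adjusted p = 1.79e-07). The ratio was 0.98 between the nicotine pools and 0.98 between the saline pools. Ugt2b7 lies next to it in the RefSeq gene order and was below the limit for the test. It read 81.2 and 75.9 in SHR, against 17.9 and 21.1 in BN, which is at least 1.76-fold higher with the BN signals raised to the floor. Nat8, which acetylates cysteine conjugates in the last step of mercapturic acid formation, read 1216 and 1229 in SHR, against 933 and 1201 in BN, and did not pass (log2 ratio 0.21, SE 0.08, limma adjusted p = 0.0881).

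**Figure D2:**
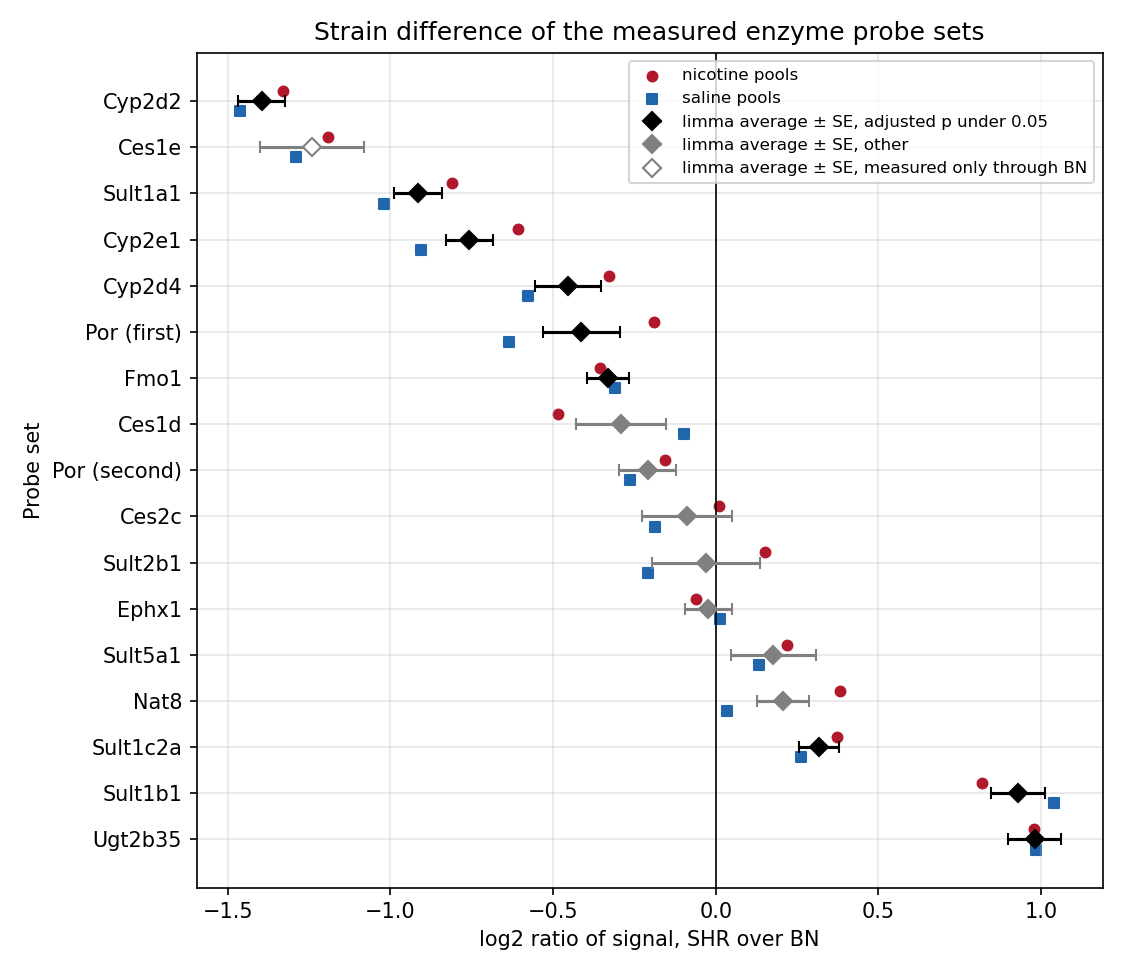
Log2 ratio of signal, SHR over BN, for the 17 measured enzyme probe sets. Diamonds are limma averages with SE bars, black where the adjusted p is under 0.05, grey elsewhere and open for Ces1e, which was measured only through BN; circles are the ratio of the nicotine pools and squares that of the saline pools. Cyp2d2 at -1.40 and Ugt2b35 at 0.98 mark the ends. The circles and squares of all 9 black rows lie on the same side of 0, which a call made on the same signals makes likely.

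**Figure D3:**
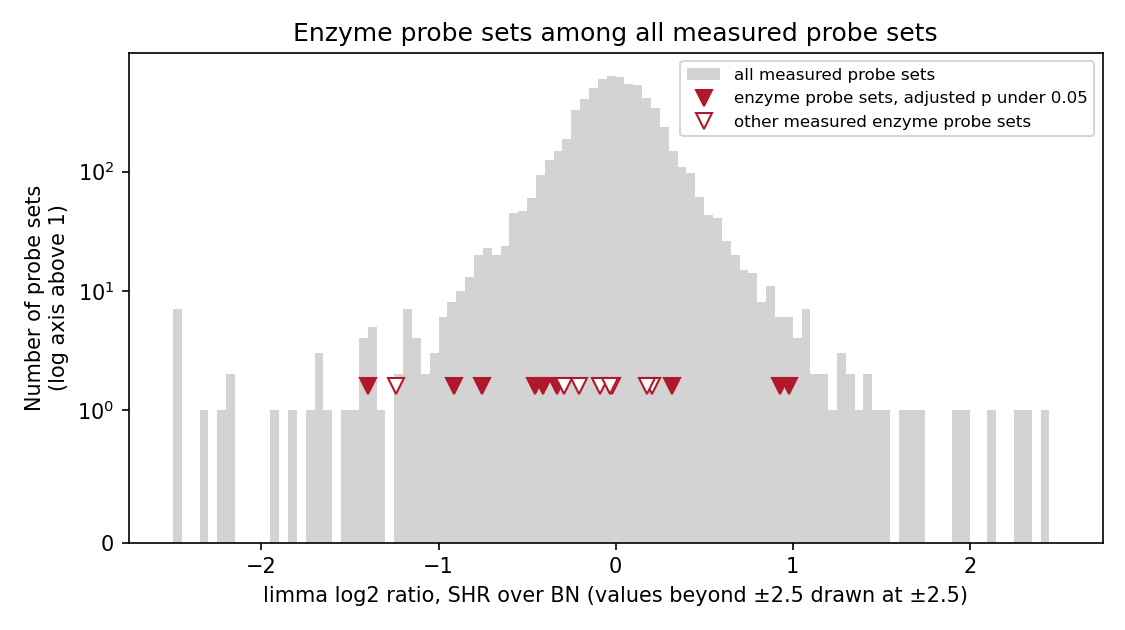
Histogram of the limma log2 ratio, SHR over BN, for all 6678 measured probe sets, with the number of probe sets on a log axis above 1 and triangles at the ratios of the 17 enzyme probe sets. Filled triangles, 9 in all, have an adjusted p under 0.05, and Ces1e is among the unfilled ones; 3 of the filled lie below -0.70 and 2 above 0.90.

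Some members stand close together on a chromosome. In the RefSeq gene order, Sult1b1 and Ugt2b35 stand on chromosome 14 with 7 protein-coding genes between them, and Ugt2b7 follows Ugt2b35 directly. All 3 had higher signals in both SHR pools, which adds no support. Sult1b1 and Ugt2b35 were called on these same signals, and Ugt2b7 lay above the floor in SHR only. The members Ugt2a1, Ugt2b and Ugt2b15, which stand between Sult1b1 and Ugt2b35, were below the floor on all arrays. So were Sult1d1 and Ugt2b1, which stand just outside. Of the other protein-coding genes in that stretch and the 20 on either side, 2 had a measured probe set: Uba6, an activating enzyme for ubiquitin, was higher in SHR (172 and 164 in SHR, against 120 and 118 in BN, limma adjusted p = 0.0142), and Ythdc1, which binds methylated RNA, had a log2 ratio of 0.01. Cyp2d2 and Cyp2d4, both lower, have 3 protein-coding genes between them on chromosome 7. Of 10 measured probe sets around that pair, 1 was called, for Tspo, which was higher in SHR at a log2 ratio of 0.41. Ces1d and Ces1e are neighbours on chromosome 19. Of 3 measured probe sets around them 1 was called, for Fto, a demethylase of RNA, which was lower in SHR (226 and 213 in SHR, against 270 and 297 in BN, limma adjusted p = 0.0227). Over all measured probe sets 9.13% were called lower and 8.13% higher. With so few measured neighbours, these counts set no place apart. These places were looked up after the values had been seen.

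Some other measures also differed by strain. Beside the counts of markers that follow, 9.13% of all measured probe sets were called lower and 8.13% higher in SHR. Of 10 measured markers of the proximal tubule, 5 were higher and 1 lower in SHR, and the summed signal of the list was 22015 to 22184 in SHR, against 19776 to 20538 in BN. Of 7 measured markers of the loop of Henle, distal tubule and collecting duct, 4 were lower and 1, Umod, higher in SHR with a median log2 ratio of -0.30. Their list summed to 8639 to 9225 in SHR, against 8353 to 8540 in BN. Umod was the largest part of that sum, at 5256 and 5260 in SHR, against 4076 and 4044 in BN. Of 2 measured podocyte markers 1, Podxl, was lower in SHR, and the list summed to 695 to 702 in SHR, against 835 to 844 in BN. The 1 measured adipocyte marker, Lpl, was lower at a log2 ratio of -0.63. Plin1 and Lep were below the floor on all arrays, and the list summed to 428 to 489 in SHR, against 600 to 659 in BN. Lpl made up most of that sum, so the sum largely repeats it. Of 3 measured endothelial and 2 measured blood markers 1 each was higher in SHR, with sums of 1117 to 1242 and 1127 to 1365 in SHR, against 1123 to 1165 and 1096 to 1553 in BN. The endothelial marker Vwf, below the limit on average, went the other way. It read 42.7 and 40.8 in the nicotine and saline pools of SHR, against 144 and 124 in those of BN. For beta-actin, the signal near the 3' end over that near the 5' end, which reflects RNA integrity, was 1.34 and 1.39 in SHR, against 1.49 and 1.54 in BN. The same ratio for Gapdh was 1.107 and 1.002 in SHR, against 1.094 and 1.075 in BN, with overlapping groups. The part of these measures in the enzyme differences was not tested. None of 8 liver markers was measured: Apoa1, Apoa2, Ahsg and Ambp were below the floor on all arrays, Alb read 41.4 and 34.2 in SHR, against 45.7 and 50.0 in BN, and the sum of the list was 218 to 252 in SHR, against 242 to 260.4 in BN. None of 4 adrenal cortex markers was measured, with sums of 71.1 to 74.1 in SHR, against 64.4 to 76.1 in BN. Of 6 leukocyte markers 3 were measured and Lyz2 was called, higher in SHR, and the list summed to 3127 to 3707 in SHR, against 2361 to 2631 in BN.

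Single arrays decided some of these calls, with strain as the only factor in fits of 3 arrays. Such fits leave 1 array in a strain, so ratios are given without p-values. Without the BN saline pool Cyp2d4 and Por lost their calls, at ratios of -0.39 and -0.29, and Ces1e fell under the limit for the test. Without the BN nicotine pool Fmo1 lost its call, at -0.29, and Ces1e again fell under the limit. Without the SHR saline pool Por lost its call, at -0.31. In the fits without a BN pool a smaller share of all probe sets was called too.

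Proteins that supply the enzymes with electrons and cofactors were called in 1 direction only. Of 10 measured genes on that list 4 were lower and 0 higher in SHR, beside 9.13% lower and 8.13% higher over all probe sets, and the median log2 ratio was -0.19. Cyb5b, an outer mitochondrial membrane cytochrome b5, read 384 and 378 in SHR, against 648 and 651 in BN. Cyb5a, the microsomal cytochrome b5 that assists some P450 reactions, read 1111 and 1075 in SHR, against 1414 and 1312 in BN. Papss1, which makes the sulfate donor of the Sult enzymes, and Ugp2, which makes UDP-glucose for glucuronidation, were lower with log2 ratios of -0.31 and -0.25 (limma adjusted p = 0.0162 and 0.049). The 4 were picked by the strain test on these same signals, so their lack of overlap between the strains adds no support.

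Of 15 measured genes for other oxidation, reduction and conjugation enzymes, 6 were lower and 1 was higher in SHR. Over all measured probe sets 9.13% were lower and 8.13% higher. The median log2 ratio of the 15 was -0.23, beside -0.0010 over all measured probe sets. The largest were Xdh, xanthine dehydrogenase, at -0.69, the carbonyl reductase Cbr4 at -0.58, the aldehyde dehydrogenase Aldh9a1 at -0.50 and the soluble epoxide hydrolase Ephx2 at -0.50. Hnmt, which methylates histamine, was higher at 0.43. Of 5 measured sensors and transcription factors (Tiparp, Nfe2l2, Keap1, Hnf4a and Cebpb) limma called 0 for strain and 0 for nicotine. Only Nfe2l2 had an unadjusted limma p under 0.05, both for strain and for nicotine. By that limit 5.08% of all measured probe sets passed for nicotine, and for strain the share was not counted. Nfe2l2 read 536 and 444 in the nicotine and saline pools of SHR, against 624 and 491 in those of BN. Its log2 ratio, nicotine over saline, was 0.27 in SHR and 0.34 in BN. The medians of the 5 were -0.02 and 0.15. Nr1i2, the pregnane X receptor, was below the limit at 92.9 and 88.3 in SHR, against 52.7 and 55.9 in BN. Of 5 efflux transporters with a probe set, 0 were measured.

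Nicotine and saline pools differed about as much for these enzymes as for all measured probe sets. The median absolute log2 ratio was 0.123 in SHR and 0.094 in BN, beside 0.105 and 0.091 over all measured probe sets. Of the 17 measured members 0 were 1.5-fold apart between nicotine and saline in SHR, beside 1.26% of all measured probe sets. In BN 0 were, beside 0.854%. With shares that small, 0 of 17 sets the members apart in neither strain. With 1 pool per group these ratios have no replicate check and no p-value. The median log2 ratio, nicotine over saline, was 0.04 in SHR and -0.05 in BN, beside -0.0067 and 0.0023 over all measured probe sets.

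In SHR the largest positive ratios belonged to Ces1e, Cyp2e1 and Sult2b1. Ces1e read 72.9 under nicotine, against 55.1 under saline, 1.32-fold higher, and Cyp2e1 1859.5 against 1434, 1.30-fold higher. Sult2b1 read 107 under nicotine, against 88.7 under saline. The largest negative ratios were those of Ces1d (121 against 150), Ces2c (117 against 144) and Ephx1 (754 against 824), at log2 ratios of -0.31, -0.29 and -0.13.

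In BN the largest positive ratio was again that of Ces1e, at 166 under nicotine, against 135 under saline, 1.23-fold higher. Sult1b1 (404 against 377) and Fmo1 (2149 against 2027) followed at 0.10 and 0.08 on the log2 scale. Ces2c had the largest negative ratio, 116 under nicotine, against 163 under saline, 1.41-fold lower, followed by Nat8 (933 against 1201, 1.29-fold lower) and the first Por probe set (256 against 303). For Nat8 the BN nicotine pool stood below the other 3 arrays, which read 1201 to 1229.

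**Figure D4:**
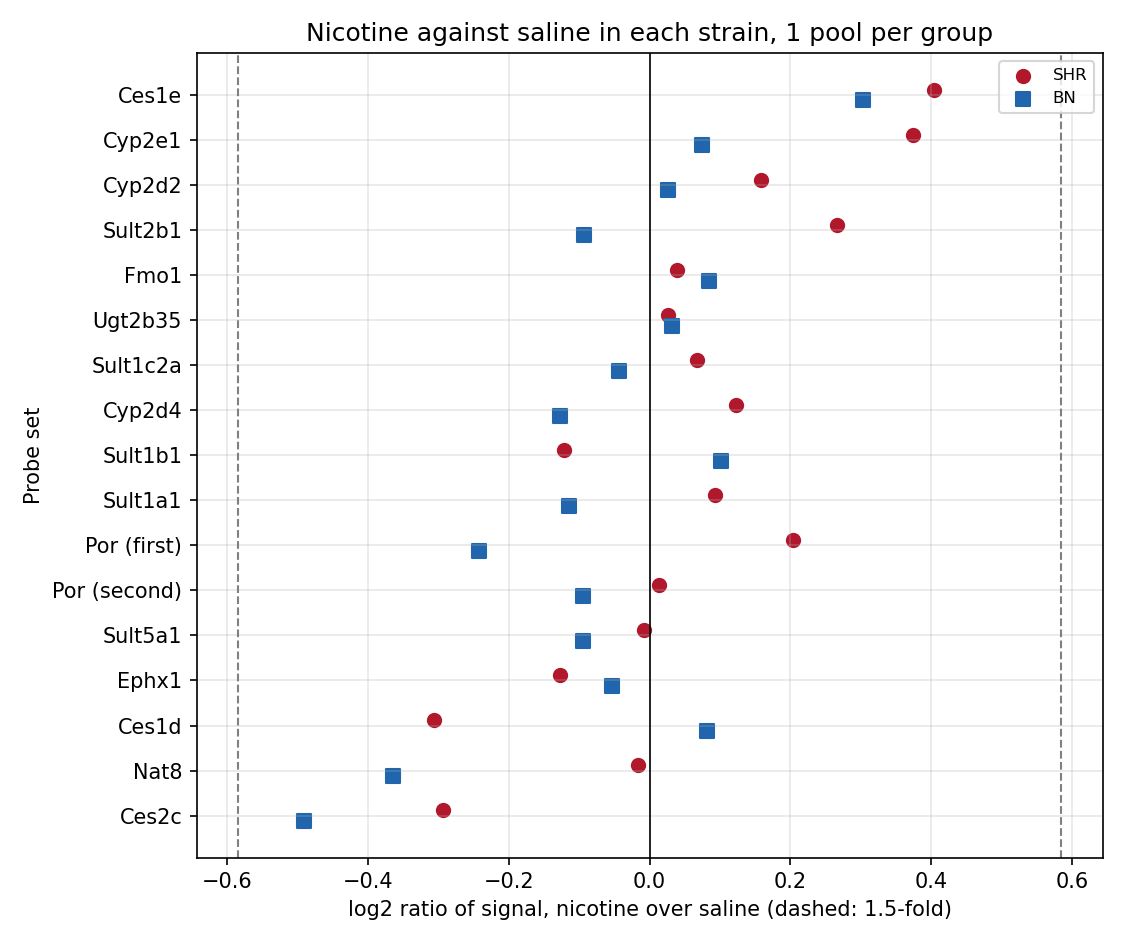
Log2 ratio of signal, nicotine over saline, for the 17 measured enzyme probe sets in SHR (circles) and BN (squares), each from 1 pool per group, with dashed lines at 1.5-fold. No point reaches a dashed line; Ces1e is highest in both strains at 0.40 and 0.30, and Ces2c is lowest in BN at -0.49.

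Averaged over the strains, limma called 0 of the 17 members for nicotine, where it called 0.0449% of all measured probe sets. At an unadjusted p under 0.05 there were 4 members, against 5.08% of all probe sets: Cyp2e1 (log2 ratio 0.22, SE 0.07), Ces1e (0.35, SE 0.16), Ces2c (-0.39, SE 0.14) and Nat8 (-0.19, SE 0.08). Their limma adjusted p lay at 0.58, 0.934, 0.644 and 0.825. The remaining 13 members had average log2 ratios from -0.11 for Ces1d to 0.09 for Cyp2d2. A further probe set below the limit, for the brain sulfotransferase Sult4a1, read 82.6 under nicotine, against 103 under saline in SHR, and 52.8 against 91.0 in BN.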

How the data were processed

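Kidney RNA of 4 pools was hybridised to 1 array each. The deposited intensity values are MAS5 signal, per the submitters' processing notes; no source used here gives its version or settings. Each array had a 2% trimmed mean of 150.0, and the column medians were 68.2, 67.9, 64.9 and 65.5 (SHR nicotine, SHR saline, BN nicotine, BN saline), so the authors' scaling was kept. No detection calls were used. After leaving out 57 control probe sets, signals were raised to the floor and log2-transformed. The fit (limma 3.58.1, R 4.3.3, lmFit and eBayes with intensity trend) has 1 residual degree of freedom and 15.5 prior ones. The residual one is the difference of the strain ratio between the treatments, and the prior ones come from the other probe sets. The p-values therefore measure neither the spread between replicate pools, of which there were none, nor that between animals. The number of arrays limits the precision.

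Genes were named from the platform annotation: 12783 probe sets had 1 symbol, 312 several (not named) and 2771 none. Every measured probe set was tested, since members are probe sets; of other lists, the probe set with the highest mean signal stood for each gene. Every member is named. The 4 signals were given for members past the test. For the 3 largest nicotine ratios in each direction and strain, at least the signals of that strain were given. Up to 4 genes called lower on each pathway list were named, by signals or by log2 ratio alone, and Hnmt, called higher, was also named. Any other value was chosen after it was seen. Members, lists and tests were chosen with earlier results of these data known. Steps were tested on simulated data. Protein sequences were not used here.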

Additional observations from a re-analysis of the deposited data

Results flagged for a closer look

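Of the 17 measured members, 8 had nicotine over saline log2 ratios of opposite sign in SHR and BN, or 47.1%, beside 51.1% of all 6678 measured probe sets. With 1 pool per group the difference between the strains was not tested for any of them. The first Por probe set, of those given above, stood at 0.20 in SHR and -0.24 in BN, a difference of 0.446, and the other Por probe set at 0.01 and -0.09, a difference of 0.107. Ces1d stood at -0.31 in SHR and 0.08 in BN (difference -0.388), and Sult2b1 at 0.27 and -0.09 (difference 0.359). Cyp2d4 stood at 0.12 and -0.13 (difference 0.25), Sult1a1 at 0.09 and -0.11 (difference 0.208), Sult1b1 at -0.12 and 0.10 (difference -0.223) and Sult1c2a at 0.07 and -0.04 (difference 0.111).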

How the results depend on the processing

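No called member changed its direction under any alternative tried, but most alternatives could not have changed it. Changes of floor, filter, trend or factors left the ratios as they were. Leaving out 1 array cannot reverse a called ratio either, since both SHR pools lie on 1 side of both BN pools. Only the quantile and cyclic loess normalisations could have. Cyp2d2, Cyp2e1, Sult1a1, Sult1b1 and Ugt2b35 kept their call in 12 of 13 alternatives, the exception being the fit with no filter on low signals. That fit called 0 members lower and 0 higher (0% of all probe sets either way, with a smallest member adjusted p of 0.308), and the median SHR over BN ratio of the 66 members was 0. The first Por probe set lost its call in 6 of 12 alternatives. Without the intensity trend 4 members were lower and 2 higher, beside 4.6% and 4.03% of all probe sets. The median ratio was -0.136 with the floor and limit at the 20th percentile, -0.271 at the 60th, -0.148 with 1 probe set per gene and -0.148 without probe sets under the limit in 1 strain, a choice made after seeing the data. Each array was also left out in turn, with strain as the only factor so that the lone array of a strain is taken to vary like the others. The medians then ran from -0.273 to -0.0792. With the 20th percentile floor, no filter, or a filter on the higher group mean, 1 member was 1.5-fold apart for nicotine in BN; it was Sult4a1. No member was called for nicotine in any alternative that tested it. No paired analysis was possible because the labels give each group 1 sample, so no replicate number could be a block. The strain test takes out treatment as a factor. With strain as the only factor it called 7 members lower and 3 higher, beside 7.86% and 6.81% of all probe sets.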

Other observations

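A set of 7 probe sets carried several gene symbols of which at least 1 fits the rule; they were left out and are not named. The 1 with the largest strain difference of them read 1759 and 1460 in the nicotine and saline pools of SHR, against 417 and 438 in those of BN, a log2 ratio of 1.91 (SE 0.08, limma adjusted p = 3.24e-11). The largest difference in the other direction was in a probe set that read 464 and 430 in SHR, against 615 and 666 in BN, a log2 ratio of -0.52 (limma adjusted p = 0.000261). Another was called higher, at 2068 and 2322 in SHR, against 1790.5 and 1933 in BN (log2 ratio 0.24, limma adjusted p = 0.016). The other measured ones did not pass, with log2 ratios of 0.16 and 0.03, and the rest lay below the limit.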
